A study of Mus musculus with 8 samples.

Results

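Calcium absorption and its control were followed through 10 genes, chosen by symbol and all present among the 52195 genes of the table. They are the entry channels Trpv5 and Trpv6, the cytosolic buffers Calb1 (calbindin D28k) and S100g (calbindin D9k), the extrusion proteins Atp2b1 and Slc8a1, the vitamin D receptor gene Vdr, the calcium-sensing receptor gene Casr, the parathyroid hormone receptor gene Pth1r, and Kl, which encodes klotho. The expression of these genes was measured by bulk RNA sequencing of polyadenylated RNA from kidney, small intestine, lung and liver of male C57BL/6 mice (C57BL/6J in the study's methods) aged 6 to 10 weeks, without a treatment, with 2 libraries per tissue and 8 in all. Whole tissue was ground, so a lower value in a tissue may come from fewer cells of a type or from less RNA per cell, and these cannot be told apart. By the study's text the libraries of a tissue came from separate mice and all 4 tissues were taken from each mouse, but the labels do not say which libraries of different tissues share an animal. The limma p-values rest on the spread between 2 mice per tissue, pooled over all 4 tissues and drawn toward that of other genes. Trpv5, Kl, Casr and Slc8a1 varied between the kidney libraries and little elsewhere. For these genes the limma p-values do not measure the spread of kidney alone.

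Calcium that is taken up across an epithelium enters the cell at the apical side through a TRPV channel, is carried through the cytosol on a calbindin, and leaves at the basolateral side through a plasma membrane calcium pump or a sodium-calcium exchanger. This route serves the distal convoluted and connecting tubules of the kidney and the absorptive cells of the proximal intestine. The active form of vitamin D acts through its receptor on both epithelia, parathyroid hormone acts on the kidney, klotho is the co-receptor of FGF23, and the calcium-sensing receptor of the thick ascending limb adjusts the calcium that is kept. TRPV5 and calbindin D28k are known as the renal forms, and TRPV6 and calbindin D9k as the intestinal forms.

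Expression is given in FPKM, the fragments of a gene scaled to its length and to the reads of the library, which makes levels of different genes comparable apart from the dependence on exon length described below. The total of reads by which each library had been scaled was read back from the spacing of its low values and lay between 9164187 and 21444675. A value that stands for fewer than 3 reads was taken as not detectable at this depth, which covers counting error only. Of the 10 genes, 8 reached an FPKM of 1 in at least 2 libraries and were tested among 16328 genes, while Casr and Slc8a1 did not. Differences are on the scale of log2(FPKM + 1), which understates those of low genes, and a call asked for a limma p, adjusted after Benjamini and Hochberg, under 0.05 together with an absolute log2 difference over 1. Markers of each tissue were in place. The 5 enterocyte markers found in the table summed to 5931 and 7786 FPKM in the small intestine libraries and to at most 57.6 in the others, and the 5 proximal tubule markers to 2332 and 2099 in kidney and at most 9.99 elsewhere.

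The libraries of a tissue were not alike for these genes, and this bears on the results below. Genes with a long summed exon length tended to be lower in kidney replicate 2 than in replicate 1. The median difference of replicate 1 minus replicate 2 was 0.00 for the 2442 genes tested with under 1 kb of exons and 0.54 for the 2124 genes with over 8 kb, and the rank correlation with exon length over 16187 genes was 0.465, given as a description because all genes share the same libraries. In small intestine this correlation was -0.269, in lung -0.0347 and in liver -0.0218. The small intestine libraries also differed in markers of position along the gut. Fabp6, a bile acid binding protein of the ileum, was at 0.223 FPKM in replicate 1 and 25.4 in replicate 2. Pdx1, a transcription factor of the duodenum, was at 4.85 and 1.76, whereas Gata4, also listed for the proximal gut, was at 25.6 and 25.2. Pancreatic acinar transcripts, listed as 8 genes, summed to 2727 FPKM in replicate 1 and 1256 in replicate 2. In a library of another tissue they summed to at most 77.2. The part of gut position and of pancreatic transcripts in the Pdx1 values was not tested.

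Before the values, the promoters of 3 members are shown, the neighbours Trpv5 and Trpv6, which were highest in different tissues, and S100g, which was abundant in 3 tissues. Each holds the 250 bases before and 50 bases after the start site in RefSeq (build GRCm38.p6), written 5′ to 3′ along the gene. Capitals mark, on either strand, the letters TATAAA of the TATA box, the letters TTTATG bound by intestinal CDX factors, and AGGTCA or GGTTCA, which are half-sites of nuclear receptors. The S100g promoter lies at chrX:162964550-162964849, that of Trpv5 at chr6:41680674-41680973 and that of Trpv6 at chr6:41636356-41636655, all on the minus strand.
S100g: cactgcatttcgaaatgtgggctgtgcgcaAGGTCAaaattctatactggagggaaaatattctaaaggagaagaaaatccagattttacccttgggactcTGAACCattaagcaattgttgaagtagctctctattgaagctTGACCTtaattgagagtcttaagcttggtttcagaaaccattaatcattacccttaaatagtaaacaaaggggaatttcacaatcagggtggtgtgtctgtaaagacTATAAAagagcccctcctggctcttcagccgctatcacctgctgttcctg
Trpv5: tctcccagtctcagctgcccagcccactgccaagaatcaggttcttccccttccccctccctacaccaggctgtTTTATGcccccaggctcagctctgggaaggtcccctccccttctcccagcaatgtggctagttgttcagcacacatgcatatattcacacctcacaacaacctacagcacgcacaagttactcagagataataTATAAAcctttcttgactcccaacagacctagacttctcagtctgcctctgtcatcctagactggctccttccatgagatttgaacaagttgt
Trpv6: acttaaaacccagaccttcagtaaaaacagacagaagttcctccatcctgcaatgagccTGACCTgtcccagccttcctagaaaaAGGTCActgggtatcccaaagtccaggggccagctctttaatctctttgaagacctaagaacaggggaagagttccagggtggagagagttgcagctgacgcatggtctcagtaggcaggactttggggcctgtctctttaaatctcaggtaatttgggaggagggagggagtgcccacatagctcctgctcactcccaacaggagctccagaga
The S100g sequence holds 2 matches to AGGTCA, 1 to GGTTCA and 1 to TATAAA, which begins at the annotated start site itself, that of Trpv5 1 to TATAAA, at -43 from the start site, and 1 to TTTATG, and that of Trpv6 2 to AGGTCA. Of all 32851 promoters of the same length, 16.3% held AGGTCA, 10.4% GGTTCA, 13.6% TATAAA and 11.9% TTTATG. The pair of half-sites spaced by 3 bases, known as the DR3 vitamin D response element, was in 0.0396% of all promoters and in none of the promoters of the 9 members that the table holds. Calb1 had no entry there. A match to such short letters is a description of the sequence and not a binding site.

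Of the entry channels, Trpv5 was found in kidney and Trpv6 at low levels in lung, small intestine and kidney. Trpv5 (chromosome 6, 41652173 to 41680769, build GRCm38) reached 4.10 FPKM in kidney replicate 1 and 1.34 in replicate 2, from 285 and 75 reads. In the other 6 libraries it was listed at 0, where 3 reads would give between 0.0744 and 0.101. The kidney mean was 30.1 times the mean floor of 3 reads in small intestine, a lower bound that rests on 2 unlike kidney libraries. The log2 difference of kidney minus small intestine was 1.79 (SE 0.30, limma adjusted p = 0.00208). Trpv5 passed the filter only through kidney, and without the filter the limma adjusted p was 0.00992. Trpv6 lies 15767 bases away on the same strand, from 41620624 to 41636405. Its FPKM was 1.64 and 1.23 in the lung libraries, 0.434 and 0.269 in small intestine, 0.249 and 0.220 in kidney, and 0 in both liver libraries. These values rest on few reads, 16 and 12 in small intestine and 21 and 15 in kidney. The kidney and small intestine libraries did not overlap, with small intestine higher, but the log2 difference of kidney minus small intestine was -0.13 with a 95% interval from -0.41 to 0.15 (limma adjusted p = 0.427). Both lung libraries were above the other 6 (exact permutation test over libraries, two-sided, p = 0.0357, the smallest that 2 of 8 allow), with a log2 difference of 1.03 from the mean of the other tissues (SE 0.10, limma adjusted p = 4.61e-05). Trpv6 passed the filter only through lung, and without the filter the limma adjusted p was 0.000272. The call in lung was lost with median-of-ratios scaling, at 0.57, and with quantile normalization, at 0.26, with the length trend removed, at 0.98, and without lung replicate 1, at 0.91.

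The longest coding transcripts of both channels are alike in 79.3% of 2124 aligned bases, yet only 1.51% of the stretches of 31 bases in Trpv5 and 1.22% of those in Trpv6 occur in a transcript of another gene. Within a library the ratio of both genes does not depend on scaling. Trpv5 was 16.5 times the level of Trpv6 in kidney replicate 1 and 6.07 times in replicate 2. In small intestine the direction was the other, with Trpv6 at least 4.39 and 3.30 times the level that 3 reads of Trpv5 would give, and in lung at least 17.3 and 16.5 times. Of the other TRPV channels, 4 were listed, 2 were tested, and Trpv4, a channel gated by osmotic stretch, was called higher in kidney with a log2 difference of 4.05, at 25.8 and 18.2 FPKM against 0.419 and 0.325 in small intestine.

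**Figure D1:**
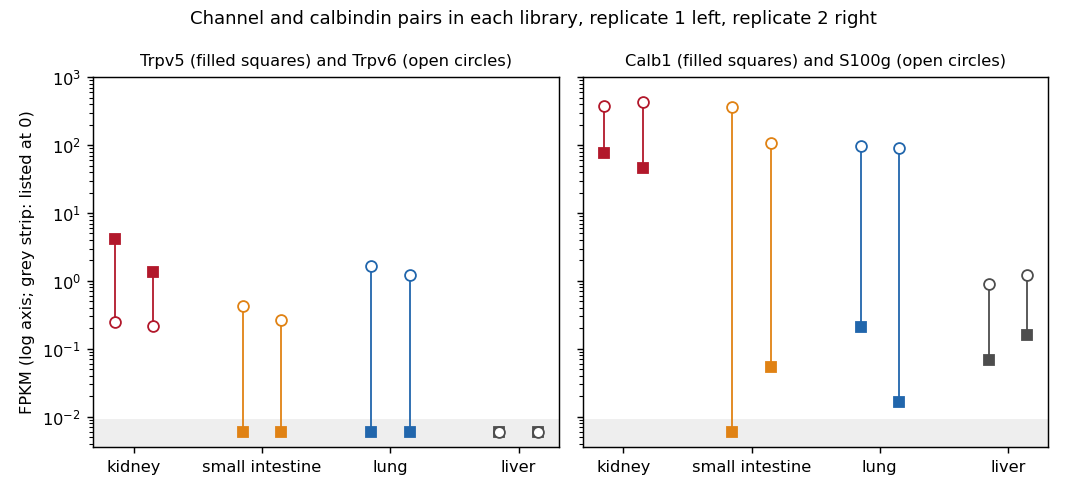
FPKM on a log axis of Trpv5 and Trpv6 (left) and of Calb1 and S100g (right) in each library, with a line joining both genes of a library and a grey strip for values listed at 0. Trpv5 is above Trpv6 in both kidney libraries and at 0 elsewhere, and S100g is above Calb1 in all 8 libraries.

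A calbindin was the most abundant gene of the route in every tissue but liver. Calb1, on chromosome 4 from 15881264 to 15908064, was at 75.5 and 46.0 FPKM in kidney. It was at 0 and 0.0547 in small intestine, 0.211 and 0.0166 in lung, and 0.0676 and 0.160 in liver, where at most 10 reads stand behind a value. Kidney was thus apart from every other library. The log2 difference of kidney minus small intestine was 5.87 (SE 0.25, limma adjusted p = 1.39e-06), and between 5.52 and 6.22 with 1 library left out. Calb1 too passed the filter only through kidney, and without the filter the limma adjusted p was 2.90e-05. S100g, a short gene on chromosome X from 162961992 to 162964599 with 480 bases of exons, was at 373 and 430.1 FPKM in kidney, 363 and 107 in small intestine, 97.5 and 90.9 in lung, and 0.909 and 1.21 in liver. Kidney therefore held the form known as intestinal at 4.94 and 9.34 times the level of Calb1. These ratios are per exon length. In reads S100g was lower, with 3837 and 3574 against 7842 and 3861 of Calb1, over 480 and 4846 bases of exons. The part of the dependence on exon length in these ratios was not tested. For S100g both kidney libraries were above both small intestine libraries. In small intestine replicate 1 S100g was at least 5482 times the level that 3 reads of Calb1 would give, and in replicate 2, with 3 reads of Calb1, it was 1962 times the level of Calb1 (exact 95% counting interval 668 to 9542). In lung replicate 1 S100g was 461 times the level of Calb1, with 10 reads of Calb1 (249 to 969). In lung replicate 2 Calb1 had 1 read, fewer than the 3 taken as detectable, so no ratio is given. The 5 proximal tubule markers also summed to 9.99 FPKM in lung replicate 1 and 3.42 in replicate 2. Whether such traces of kidney genes come from lung itself was not tested. The liver values of S100g stand for 4 and 6 reads.

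S100g did not pass the test between kidney and small intestine, with a log2 difference of 1.02 and a 95% interval from -0.09 to 2.12 (limma adjusted p = 0.119). The small intestine libraries differed by 1.75 on the log2 scale. Of all genes tested, 1.46% were more than 1 higher in replicate 1 than in replicate 2 of small intestine. Without small intestine replicate 1 the log2 difference was 1.89 (limma adjusted p = 0.000515), and without replicate 2 it was 0.14. The adjusted p lay between 0.000515 and 0.561 over the 20 alternatives. It was also called with quantile normalization, at 1.75, with mitochondrial genes left out before rescaling, at 1.53, and with the length trend removed, at 1.18. Of the 5 genes listed for the proximal gut, all were higher in replicate 1, although Gata4 differed little, at 25.6 and 25.2 FPKM. The ileal genes Fabp6 and Slc10a2 were both lower there, Slc10a2 at 0.309 and 1.62 FPKM. The acinar genes were also higher in replicate 1, in 8 of 8. The part of gut position and of these transcripts in the S100g values was not tested. Against the mean of the other tissues S100g was called higher in kidney, at 3.57 (limma adjusted p = 0.000188), and in small intestine, at 2.21 (limma adjusted p = 0.00213, between 1.34 without small intestine replicate 1 and 3.09 without replicate 2), and lower in liver, at -6.58 (limma adjusted p = 6.92e-06). The small intestine values of S100g overlapped those of the other 6 libraries (exact permutation test, two-sided, p = 0.536). For lung the difference was 0.80 (limma adjusted p = 0.0899), and its direction turned with median-of-ratios scaling, at -0.27. It was called higher in lung with a pseudocount of 0.1, at 1.07, with the same sum in each library, at 1.25, and without small intestine replicate 1, at 1.09.

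**Figure D2:**
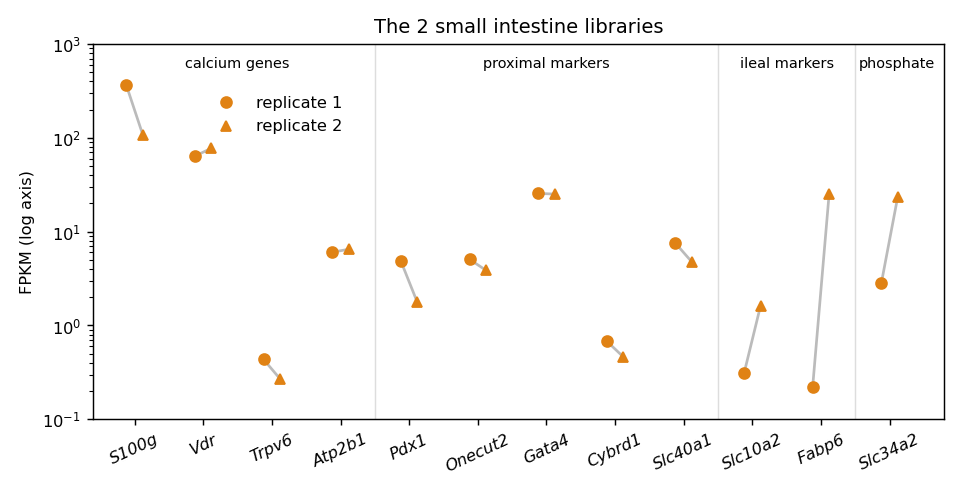
FPKM on a log axis of 4 calcium genes, 5 markers of the proximal intestine, 2 ileal markers and the phosphate transporter Slc34a2 in small intestine replicate 1 (circles) and replicate 2 (triangles). S100g is at 363 and 107 while the values of Vdr and of Atp2b1 lie close together, and Fabp6 is at 0.223 in replicate 1 and 25.4 in replicate 2.

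Of the other buffers with an EF-hand, Pvalb (parvalbumin) was at 7.57 and 8.10 FPKM in kidney and listed at 0 in small intestine, with a log2 difference of 3.14. Calb2 (calretinin) was at 1.96 and 1.93 in small intestine and listed at 0 in kidney, at -1.56, and Ocm (oncomodulin) was at 7.87 and 19.3 in small intestine, at -3.75. All 3 were called. Calb2 and Ocm passed the filter only through small intestine, and without the filter their limma adjusted p was 3.37e-05 and 0.000752.

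Of the extrusion genes, Atp2b1 was highest in lung, as was Trpv6, and Slc8a1 in kidney, as was Trpv5. Atp2b1, which encodes a plasma membrane calcium pump on chromosome 10 from 98914406 to 99026143, was at 11.3 and 10.3 FPKM in lung. It was at 6.04 and 6.49 in small intestine, 3.67 and 1.98 in kidney, and 1.61 and 2.07 in liver. Kidney was thus below both small intestine and lung, without overlap, and overlapped with liver. The log2 difference of kidney minus small intestine was -0.96 (SE 0.24, limma adjusted p = 0.0123), under the size asked for a call. It passed that size in 5 alternatives, among them the removal of the length trend, at -1.02, and the omission of kidney replicate 1, at -1.28. The gene is long, with 15218 bases of exons. In lung the log2 difference from the other tissues was 1.48 (SE 0.19, limma adjusted p = 0.000253), which fell to 0.49 with median-of-ratios scaling and 0.59 with quantile normalization and was then not called. Slc8a1, the sodium-calcium exchanger gene on chromosome 17 from 81373105 to 81738377, was at 4.39 FPKM in kidney replicate 1 and 0.591 in replicate 2, from 1769 and 192 reads. In lung it was at 0.175 and 0.247, and in small intestine and liver at most 0.0372. Both kidney libraries were above the other 6 (exact permutation test over libraries, two-sided, p = 0.0357). In the fit without the filter on low values its log2 difference of kidney minus small intestine was 1.53 (SE 0.51, limma adjusted p = 0.080), which did not pass. Against the mean of the other tissues it was 1.44 in the same fit (SE 0.42, limma adjusted p = 0.0432) and was called, as were 4.74% of all genes. Slc8a1 is the exchanger of heart muscle, and markers of cardiac muscle, 7 genes, summed to 243 and 250.3 FPKM in lung against at most 9.31 in other libraries. Their part in the lung values of Slc8a1 was not tested. Of its exon length, 1.62% overlaps genes on the opposite strand, and the use of strand in the counting is not given in the sources used here. Of the 11 other pumps and exchangers listed, 5 were tested and 1 was called, Slc24a3, a potassium-dependent exchanger that was lower in kidney, at -1.46.

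**Figure D3:**
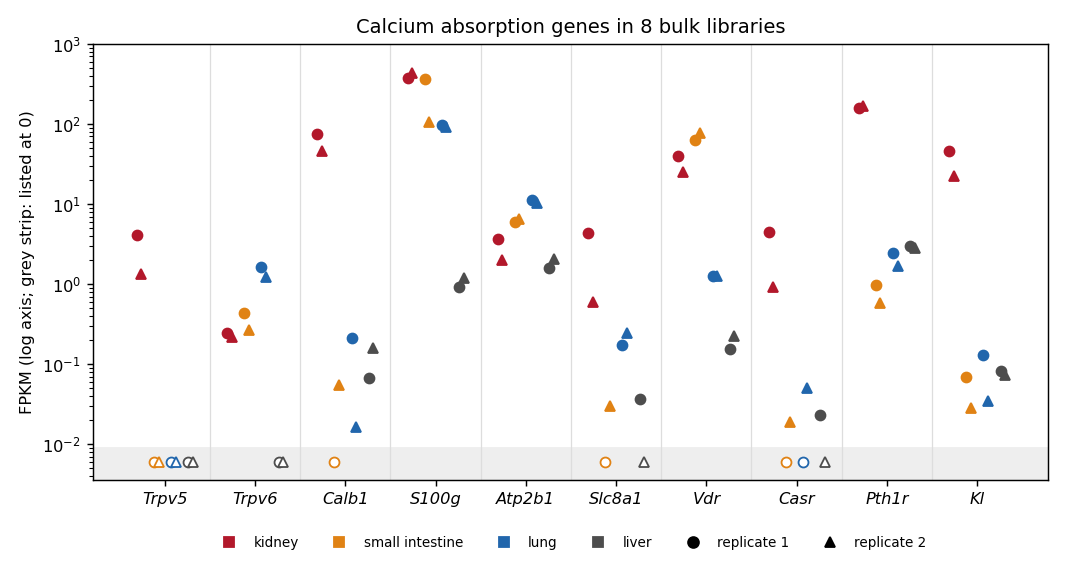
FPKM on a log axis of the 10 genes in 8 libraries, coloured by tissue, with circles for replicate 1, triangles for replicate 2 and open symbols in the grey strip for values listed at 0. Kidney is above every other library for Trpv5, Calb1, S100g, Slc8a1, Casr, Pth1r and Kl, small intestine for Vdr, and lung for Trpv6 and Atp2b1.

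Of the genes for receptors and control, Pth1r, Kl and Casr were highest in kidney, and Vdr was high in both kidney and small intestine. Pth1r, on chromosome 9 from 110722085 to 110747145, was at 161 and 169 FPKM in kidney, 0.986 and 0.574 in small intestine, 2.45 and 1.68 in lung, and 3.02 and 2.81 in liver. Kidney libraries were close to each other, and small intestine was below all others. The log2 difference of kidney minus small intestine was 6.55 (SE 0.19, limma adjusted p = 3.83e-07), and the ratio of means was 212. Of its exon length, 3.25% overlaps Myl3 on the opposite strand. Kl, on chromosome 5 from 150952607 to 150993817, was at 46.5 and 22.3 FPKM in kidney and at most 0.132 elsewhere. Its log2 difference of kidney minus small intestine was 4.99 (SE 0.31, limma adjusted p = 8.75e-06), with a limma adjusted p of 0.000133 without the filter, which Kl passed only through kidney. Casr, on chromosome 16 from 36493696 to 36562141, was at 4.51 in kidney replicate 1 and 0.931 in replicate 2, from 456 and 76 reads, and had at most 3 reads in any other library. Its log2 difference in the fit without the filter was 1.69 (SE 0.44, limma adjusted p = 0.0354). In that fit 5.71% of all genes were called higher in kidney.

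Vdr, on chromosome 15 from 97854425 to 97910630, was at 63.8 and 77.6 FPKM in small intestine and 40.0 and 25.5 in kidney. It was at 1.27 in both lung libraries and at 0.155 and 0.223 in liver. Small intestine was above kidney without overlap, and both were far above lung and liver. The log2 difference from the mean of the other tissues had a 95% interval from 3.57 to 4.43 in small intestine (limma adjusted p = 2.19e-06) and was 2.51 in kidney (SE 0.19, limma adjusted p = 2.98e-05). The difference of kidney minus small intestine was -1.12 (SE 0.23, limma adjusted p = 0.00505), just past the size asked for a call. That call was lost with median-of-ratios scaling, at -0.80, with quantile normalization, at -0.72, with mitochondrial genes left out before rescaling, at -0.62, without kidney replicate 2, at -0.80, and without small intestine replicate 2, at -0.98, and the direction was the same in all 20 alternatives. Mitochondrial genes and their pseudogenes took 63.1% and 68.4% of the summed FPKM in kidney against 48.8% and 48.7% in small intestine, and their part in the difference was not tested beyond the rescaled value above.

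**Figure D4:**
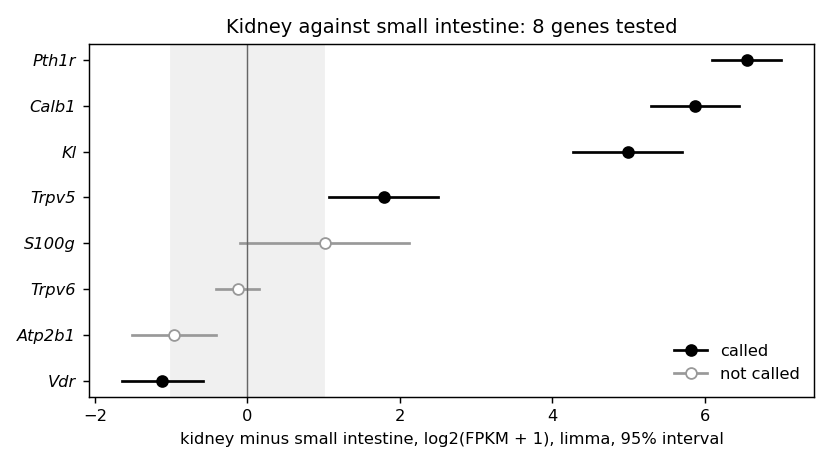
Log2 difference of kidney minus small intestine with its 95% interval from limma for the 8 genes tested, filled where called and open where not, with differences under 1 in grey. Pth1r, Calb1, Kl and Trpv5 lie to the right of 1, Vdr lies at -1.12, and the intervals of S100g and Trpv6 hold 0.

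In all, 4 of the 8 members tested were called higher in kidney than in small intestine, Pth1r, Calb1, Kl and Trpv5, where 10.7% of all genes were, and 1, Vdr, was called lower, where 18.8% were. Trpv5, Calb1 and Kl passed the filter on low values only through their kidney libraries, and Trpv6 only through those of lung, so a difference was given by the filter and these counts are a description. In the fit without the filter, where 5.71% of all genes were called higher, the members called higher were these 4 and Casr, of 10. The median log2 difference was 1.40 over these 8 and -0.18 over all genes tested. Of all genes, 1750 were called higher and 3073 lower, and with median-of-ratios scaling 2218 and 2448. In the comparison of kidney with the mean of the other tissues, 6 of 8 were called higher, these 4 with S100g and Vdr, against 8.65% of all genes, and 0 lower, against 16.1%. In the same comparison for small intestine, 2 were called higher, Vdr and S100g, against 13.7% of all genes, and 3 lower, Pth1r, Calb1 and Kl, against 11.3%. The lower calls of Calb1 and Kl in small intestine, lung and liver rest on the kidney libraries, which are part of the mean of the other tissues, and in each of these 3 tissues their values overlapped those of the other 6 libraries. The same holds for the lower calls of Pth1r in lung and liver. Vdr in lung and Atp2b1 in liver were also called lower while their values overlapped those of the other 6 libraries. In lung 2 were called higher, Atp2b1 and Trpv6, against 40.7% of all genes, and 4 lower, Vdr, Calb1, Pth1r and Kl, against 8.26%, while the median of all genes was 0.82. In liver 0 were called higher by limma, against 6.56% of all genes and with 0 at an unadjusted p under 0.05, and 6 lower, against 32.7%, with a median of all genes of -0.72. Both small intestine libraries were above the other 6 for 1 member, Vdr, against 12.8% of all genes tested. Both kidney libraries were above the other 6 for 7 of the 10 members, and for 5 of the 8 tested, against 8.6% of the genes tested.

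The kidney libraries differed in the level of several members. Of the 10 members 8 were higher in kidney replicate 1, and 4 differed by more than 1 on the log2 scale, namely Slc8a1 by 1.76, Casr by 1.51, Trpv5 by 1.13 and Kl by 1.03. The SE of kidney minus small intestine was 0.51 and 0.44 for Slc8a1 and Casr without the filter, and 0.30 and 0.31 for Trpv5 and Kl. These values pool the spread of all tissues and understate that between the kidney libraries. Trpv5 and Kl are 2 of the 8 members tested, and 4.91% of all genes tested differed as much in this direction. S100g and Pth1r were slightly higher in replicate 2, by 0.21 and 0.07. Slc12a3, the sodium-chloride cotransporter of the distal convoluted tubule, was at 84.0 and 17.7 FPKM, and Slc12a1, a marker of the thick ascending limb, at 140 and 55.5. Of the markers listed, 4 of 5 of the distal tubule, 4 of 5 of the thick ascending limb, 4 of 5 of the proximal tubule, 3 of 4 of the collecting duct and 3 of 3 of podocytes were higher in replicate 1, where the median over all genes tested was 0.22. Other lists went in either direction, with 5 of 5 stromal and 4 of 4 endothelial genes but 0 of 4 hepatocyte, 0 of 3 alveolar type 2 and 1 of 8 acinar genes higher in replicate 1. The exceptions of the distal tubule and the thick ascending limb were Pvalb, at 7.57 and 8.10, and Cldn16, at 6.24 and 7.24. Exon length was 480 bases in S100g, 4718 in Casr, 4846 in Calb1 and 18807 in Slc8a1. The part of length and of nephron segment in these differences was not tested. With the length trend removed from each library, the calls of Pth1r, Calb1, Kl, Trpv5 and Vdr held, and S100g and Atp2b1 were called as well, at 1.18 and -1.02.

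**Figure D5:**
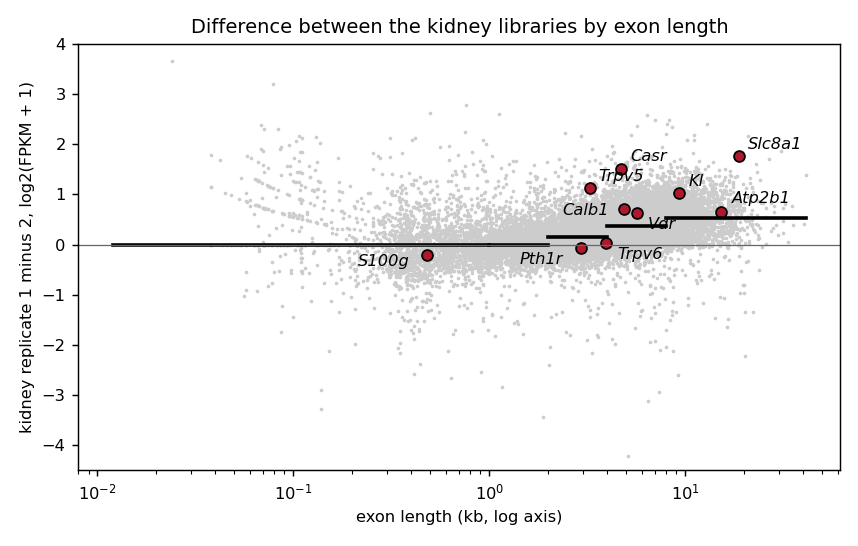
Difference of kidney replicate 1 minus replicate 2 in log2(FPKM + 1) against exon length on a log axis for 16187 genes (grey), with the 10 members in red and black bars for the median of genes with under 1, 1 to 2, 2 to 4, 4 to 8 and over 8 kb of exons. The bars rise from 0.00 to 0.54, and Slc8a1, Casr, Trpv5 and Kl lie above 1.

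Genes that act beside the members were taken from lists and counted without the members, and each count stands against 10.7% of all genes called higher in kidney and 18.8% called lower. In lists this short, a count near these shares is not a result about the list. Of the 29 genes called in these lists, 7 reached the filter in 1 tissue only, so that the filter gave the difference, namely Calb2, Ocm, Cldn16, Cldn19, Cyp24a1, Slc34a3 and Egf. All 7 were also called by limma in the fit without the filter. Of 7 claudins of paracellular calcium and magnesium transport, 4 were called higher in kidney and 1 lower. Cldn10 was at 61.3 and 77.4 FPKM in kidney against 0.206 and 0.136 in small intestine, a log2 difference of 5.90, and Cldn16, which forms the cation pore of the thick ascending limb, had 2.83. Cldn15, a cation pore of the intestine, was at 218 and 233 in small intestine against 5.40 and 3.56 in kidney, at -5.39. Of 8 genes for the activation, breakdown and transport of vitamin D, 7 were tested, 3 were called higher and 2 lower. Lrp2 (megalin), which takes up the vitamin D binding protein, had 5.34, and Cyp24a1, the enzyme that breaks down the active hormone, was at 11.3 and 8.41 FPKM in kidney and at most 0.0816 elsewhere, with 3.41. Cyp27b1, which makes the active hormone, was not tested and stood at 1.83 and 0.539 in kidney. Cyp27a1 and Dhcr7 were called lower, at -1.27 and -1.07, and these calls were lost in 6 and 5 of the 20 alternatives, in both cases with median-of-ratios scaling, quantile normalization, mitochondrial genes left out and kidney replicate 2 left out. Of the 7 partners of the vitamin D receptor, 6 were tested and 0 called by limma or by limma-voom, with 0 at an unadjusted p under 0.05. Without kidney replicate 1, 1 was called higher and 1 lower, and with mitochondrial genes left out before rescaling 1 was called higher. Rxra, the heterodimer partner, was at 15.3 and 7.77 in kidney and 12.2 and 12.4 in small intestine.

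Among 11 genes of the klotho and FGF23 axis, 8 were tested and 2 were called higher in kidney, Fam20c at 2.46 and Fgfr4, a receptor for FGF23, at 2.36. With median-of-ratios scaling 4 were called, as without kidney replicate 2. Fgfr1, the receptor that klotho is best known to bind, was at 2.91 and 1.73 FPKM in kidney and 0.746 and 0.617 in small intestine, and its difference of 0.96 was under the size asked for. Of 8 other genes of parathyroid hormone and calcium sensing, 1 was tested and 0 called by limma or by limma-voom, with 0 at an unadjusted p under 0.05. The gene tested passed the filter only through lung and was at most 0.0309 FPKM in kidney and small intestine. The count is therefore no result about this list. Pth itself was listed at 0 in every library. Among the 6 phosphate transporters, 2 were called higher in kidney and 1 lower. Slc34a1 had a log2 difference of 9.03 and Slc34a3 of 3.95, while Slc34a2 was at -2.65. Slc34a2 differed between the small intestine libraries in the direction opposite to S100g, at 2.81 and 23.6 FPKM, and its call was lost in 6 alternatives.

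Of 14 genes known to regulate TRPV5 and TRPV6, 13 were tested, 3 were called higher and 3 lower, the latter near the share of all genes. With mitochondrial genes left out before rescaling, 6 of these regulators were called higher and 3 lower. Klk1 (tissue kallikrein) was at 1335 and 899 FPKM in kidney against 98.3 and 64.1 in small intestine, at 3.77, and Wnk4, a kinase of the distal nephron, had 2.53. S100a10 and Anxa2, which together bring the channels to the membrane, were lower in kidney, at -2.96 and -3.59. Of 9 magnesium genes 8 were tested, 2 called higher and 1 lower, namely Fxyd2, a subunit of the sodium pump, at 7.60, Egf at 5.93, and Cnnm4, a basolateral magnesium transporter, at -2.62. Without kidney replicate 2, and with mitochondrial genes left out before rescaling, 5 were called higher.

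The genes with the pattern most like that of a member were found by the distance between centred log2(FPKM + 1) values over the 8 libraries. For Trpv5 they were Erich6b, at a distance of 0.142, Gm48135, Gm906, Tfap2b and Abca13, at most 0.310. Tfap2b is a transcription factor of the distal nephron. For Calb1 they were Tmem52b, at 0.245, Egf, Mfsd4b5, Cyp2j11 and Kcnj16, and for Kl they included Rhcg, at 0.358, Kcnj1, Tmem229a and Cyp2j13. Those of Trpv6 were Ptges3, Gm36298, Gins4, Zfp455 and Filip1, between 0.185 and 0.232, which share the highest values in lung. That trait is common, as 40.7% of all genes tested were called higher in lung, with a median log2 difference of 0.82. No gene was as near to S100g. Cd63 came first, at 2.78, with 184 and 171 FPKM in kidney, 44.8 and 36.1 in small intestine, 41.5 and 46.8 in lung, and 1.36 and 1.68 in liver.

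Within kidney the order of levels was S100g, Pth1r, Calb1, Kl, Vdr, Atp2b1, Casr, Trpv5, Slc8a1 and Trpv6. S100g was apart from Pth1r and Pth1r from Calb1, but the values of Calb1 and Kl, of Kl and Vdr, and of each neighbour from Atp2b1 to Slc8a1 overlapped between libraries. In small intestine S100g, Vdr, Atp2b1, Pth1r and Trpv6 followed each other without overlap, and Kl, Calb1, Slc8a1, Casr and Trpv5 were at or under 0.0687.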

How the data were processed

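Bulk libraries of 4 mouse tissues, 2 per tissue, were grouped by their labels. The authors selected reads by sample index with bbduk, mapped them to the mouse genome of Ensembl (GRCm38) with STAR 2.5.3a under default parameters and deposited FPKM values computed in DESeq2. The program that counted reads, and its use of strand, are not given in the sources used here. A few very abundant transcripts, such as mitochondrial ones, lower the FPKM of all other genes of a library.

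Symbols were matched to GENCODE M21 (GRCm38), where 51844 of 52195 (99.3%) had a single match. Multiplied by exon length, 94.5% to 96.1% of the low values per library, under 50 reads, were whole multiples of 1 read within 0.02 reads, which gave the reads behind each value. Only genes that reached 1 FPKM in 2 libraries or more entered the test, which was made on log2(FPKM + 1) with limma 3.58.1 (lmFit, eBayes with a trend, all 8 libraries in the fit) in R 4.3.3. Kidney was compared with small intestine, and each tissue with the mean of the other 3. Exact permutation tests ran over all ways to choose 2 of 8 libraries. Tables and figures used Python 3.11.15, pandas 2.3.3, scipy 1.17.1, Biopython 1.88 and matplotlib 3.10.9, and the limma step was tested on simulated data.

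Named were the 10 members, the 2 called genes with the largest difference in each direction of a list, the 5 nearest genes of 5 members and marker genes beside a result, of which 2 genes are not reported here. Rxra, Fgfr1, Cyp27b1, Cldn19 and Pth were named after their values were seen. The members and lists were chosen with earlier results of these data known. Alternatives changed the pseudocount, filter, scaling, trend, block, samples and kind of values. Removal of the length trend, scaling without mitochondrial genes and a crossed block were chosen after seeing the data.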

Additional observations from a re-analysis of the deposited data

How the results depend on the processing

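The count of members called between kidney and small intestine was 5 and lay between 4 and 7 over the alternatives with all libraries and between 4 and 6 with 1 library left out, and the count of all genes called lay between 4430 and 6572. The count of members apart from the other 6 libraries in kidney or small intestine was 8 in each setting tried. Trpv5, Calb1, Kl and Pth1r kept their calls in all 20 alternatives, at log2 differences of at least 1.22, 5.52, 4.47 and 6.39. Values far above the reported ones came from limma-voom on recovered reads, with 7.33 for Trpv5, a gene at 0 in small intestine whose fitted difference depends on the prior count. The difference between the kidney and small intestine means of the log2 ratio of Trpv5 over Trpv6 was 1.92 with a pseudocount of 1, 5.03 with 0.1 and 7.85 with recovered reads per kb, and that of Calb1 over S100g was 4.85, 7.87 and 10.1. The direction turned in 2 values that were not called, Trpv6 in kidney against small intestine with quantile normalization, at 0.0549 (limma adjusted p between 0.241 and 0.945 over the alternatives), and S100g in lung with median-of-ratios scaling, at -0.27. Of the genes called between kidney and small intestine 36.3% were higher in kidney, 47.5% with median-of-ratios scaling, 50.9% with quantile normalization, 33.7% with the same sum in each library and 53.9% with mitochondrial genes left out first, and the cause was not tested. The median log2 difference of all genes was -0.18 and -0.01 with median-of-ratios scaling.

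Correlations of the difference between replicates lay between -0.217 and 0.0528 over 6 pairs of tissues. Traits of single libraries, such as the length trend, enter these differences, so they cannot show whether a replicate number marks a mouse. The number was not taken as a pairing because the labels do not give one. A replicate block gave 4805 genes called in place of 4823, with 5 members called, and a crossed block in the kidney and small intestine libraries gave 4705. Leaving out 1 library in turn gave between 4519 and 5218 genes. Where a tissue then had 1 library, it was assumed to vary like the others. At this depth 3 reads of S100g, the shortest member, correspond to between 0.291 and 0.682 FPKM, so its liver values are close to the limit.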
